A study of Mus musculus with 6 samples.

Results

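The genes described are those of the mouse major histocompatibility complex (MHC, called H2 in mice) and of antigen presentation. They were taken by symbol from the deposited tables: every gene whose name begins with H2- and 9 others, B2m, Tap1, Tap2, Tapbp, Cd74, Ciita, Nlrc5, Fcgrt and Cd1d1. This gave 52 of the 24346 listed genes. RNA-seq was available from kidneys of 3 samples given D-serine and 3 given vehicle. All were from mice with unilateral nephrectomy (UNX, surgical removal of 1 kidney) that had eaten a serine-free diet for 1 week, with 0.1% D-serine in the water of the first group and none in that of the vehicle group, and they were killed 2 days after surgery. Nothing in the labels gives the age, sex or strain of the mice, or ties a sample to a single animal, and p-values therefore cover only the spread among these samples, which may be technical.

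Class I MHC molecules pair a heavy chain with beta-2 microglobulin, carry peptides cut by the proteasome and pumped into the endoplasmic reticulum by the TAP transporter, and show them to CD8 T cells on nearly every nucleated cell. Class II molecules are built from an alpha and a beta chain with the invariant chain, carry peptides from endocytosed protein, and are made mainly by dendritic cells, macrophages and B cells. Both sets of genes respond to interferon gamma, and in kidney tubule cells they are known to be inducible during inflammation.

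The values are FPKM, fragment numbers corrected for transcript length and library size, which allow levels of different genes to be compared. The spacing of the lowest values put the depth of the libraries at roughly 7450000 to 8910000 mapped fragments. At that depth about 16.2 fragments make 1 FPKM of a transcript of 2 kb. The kidney markers Umod, Aqp2, Slc34a1, Lrp2 and Slc12a3 were above 0 in all 6 libraries. Slc5a2, of the early proximal tubule, was at 19.8, 29.6 and 48.6 FPKM with D-serine, against 55.9, 11.1 and 56.6 FPKM with vehicle. Slc5a12, also of the proximal tubule, was at 13.3, 15.4 and 38.3 FPKM with D-serine, against 40.2, 8.99 and 38.8 FPKM with vehicle. In these genes vehicle replicate 2 stood apart from its group, and D-serine replicate 3 lay nearer to vehicle replicates 1 and 3. In Cubn, Slc22a6 and Slc7a13 vehicle replicate 2 did not lie with D-serine replicates 1 and 2. The bearing of this on the members was not tested.

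Of the 52 genes, 23 reached a 6-library mean of 1 FPKM and were tested, 19 lay below that but above 0 in some library, and 10 were listed at 0 throughout. None of the 23 passed limma at an adjusted p of 0.05, where 0.0767% of the 11737 genes tested did (9 genes, with 0.00852% called higher and 0.0682% called lower). Without D-serine replicate 3 the genes called numbered 608, of which H2-K1 was the 1 member, and without any other single library 2 to 27. At an unadjusted p under 0.05 there were 9 of 23 members, or 39.1%, against 27.7% of all genes tested. Estimates were higher with D-serine for 18 members (78.3%, against 48.9% of all genes tested) and lower for 5. The share of 48.9% is also the background for the counts of higher estimates given below. The median log2 difference of the members was 0.23 on the log2(FPKM + 1) scale, against -0.0078 over all genes tested. The 3 D-serine libraries did not overlap the 3 vehicle libraries for 8 members, or 34.8%, near the 35.8% of all genes tested. Split by direction, 6 members (26.1%) lay higher in every D-serine library, against a background of 16.5%, and 2 (8.7%) lay lower, against 19.4%. The members share reads and are not independent of each other. Counted by role, the estimate was positive for 4 of 4 tested genes that assist class I, 3 of 4 of the class Ia group, 4 of 7 of class Ib and 6 of 6 of class II. Among these, the mean FPKM of H2-Q8 was 1.09 in each group and that of H2-Aa 11.7 with D-serine and 11.9 with vehicle, so their positive sign comes from the log scale.

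**Figure D1:**
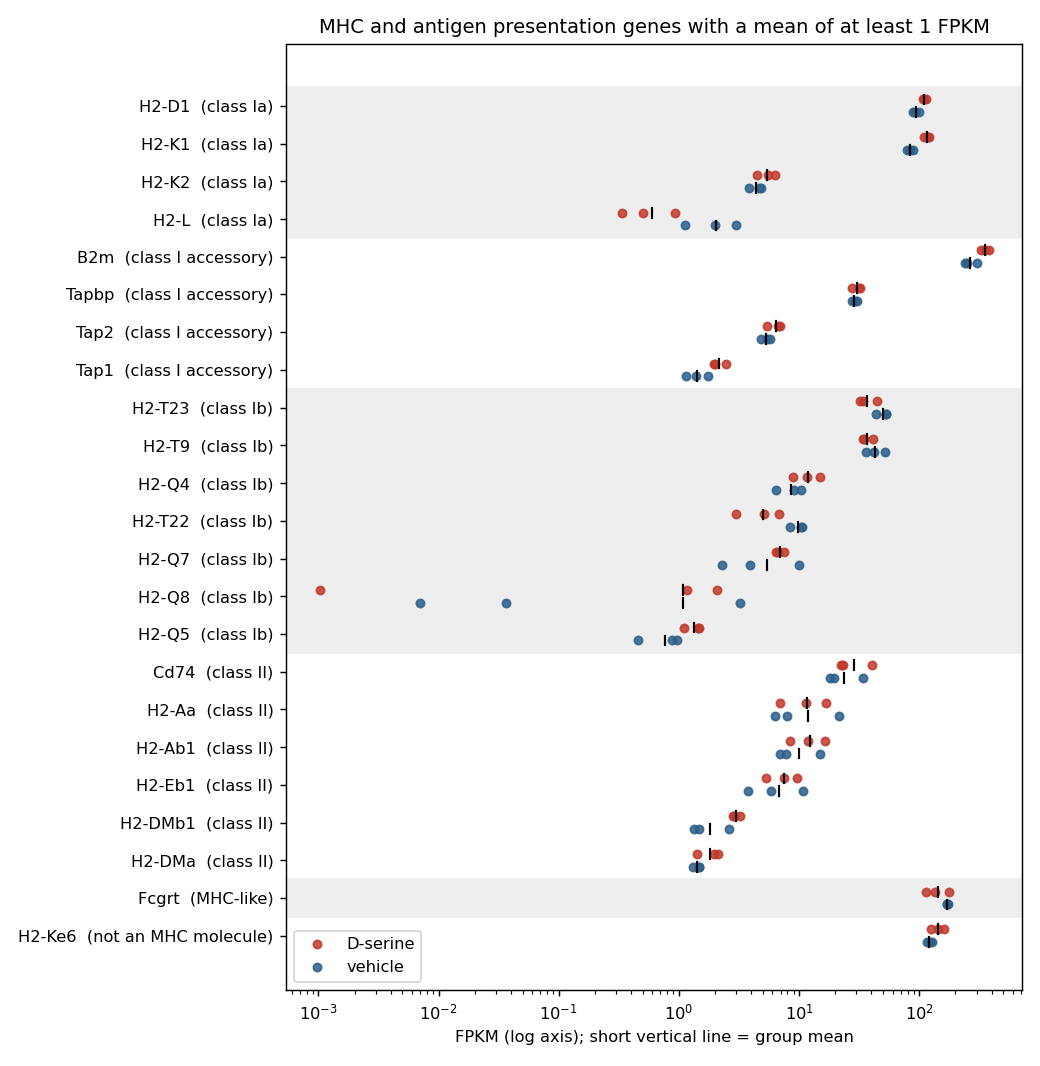
FPKM of the 23 tested genes in each library on a log axis, D-serine in red above vehicle in blue, grouped by role, with the group mean as a short line. H2-K1, H2-D1 and B2m show groups that stand apart, whereas Cd74, H2-Aa, H2-Ab1 and H2-Eb1 spread widely within both groups.

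H2-K1 and H2-D1 encode the classical class I heavy chains that present peptides to CD8 T cells, and B2m encodes the light chain that all class I molecules need. They were the most abundant class I transcripts of the set. Their promoters are printed here because these genes had D-serine libraries wholly above vehicle libraries, together with those of H2-T23 and H2-T22, nonclassical class I genes that had lower means with D-serine. Each stretch runs 5′ to 3′ from 250 bases before to 50 bases after the RefSeq start on GRCm38.p6 (mm10). Capitals mark 3 motifs, searched on both strands: a kappa B palindrome (the longest run of capitals in the H2-K1 and H2-D1 lines, of the kind bound by NF-kappa B), a core of the interferon-stimulated response element (GAAA, any 2 letters and GAAA) and CCAAT.
H2-K1 promoter, chromosome 17, chr17:34000298-34000597, - strand: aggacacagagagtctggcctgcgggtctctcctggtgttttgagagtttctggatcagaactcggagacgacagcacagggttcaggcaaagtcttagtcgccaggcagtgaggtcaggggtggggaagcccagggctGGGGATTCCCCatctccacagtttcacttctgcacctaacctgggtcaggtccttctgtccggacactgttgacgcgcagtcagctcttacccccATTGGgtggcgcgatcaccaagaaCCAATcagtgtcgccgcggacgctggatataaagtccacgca
H2-D1 promoter, chromosome 17, chr17:35262844-35263143, + strand: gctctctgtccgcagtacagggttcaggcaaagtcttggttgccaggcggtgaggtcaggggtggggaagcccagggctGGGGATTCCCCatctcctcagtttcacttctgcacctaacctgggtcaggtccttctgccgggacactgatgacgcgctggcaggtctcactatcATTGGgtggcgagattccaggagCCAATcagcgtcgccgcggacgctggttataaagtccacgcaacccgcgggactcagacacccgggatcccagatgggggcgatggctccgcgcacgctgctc
B2m promoter, chromosome 2, chr2:122147437-122147736, + strand: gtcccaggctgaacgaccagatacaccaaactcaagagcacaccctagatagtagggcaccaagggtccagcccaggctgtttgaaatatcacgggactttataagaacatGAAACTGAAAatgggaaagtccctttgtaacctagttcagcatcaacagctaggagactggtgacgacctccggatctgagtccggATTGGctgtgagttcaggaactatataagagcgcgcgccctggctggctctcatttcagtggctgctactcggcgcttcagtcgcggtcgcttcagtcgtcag
H2-T23 promoter, chromosome 17, chr17:36032652-36032951, - strand: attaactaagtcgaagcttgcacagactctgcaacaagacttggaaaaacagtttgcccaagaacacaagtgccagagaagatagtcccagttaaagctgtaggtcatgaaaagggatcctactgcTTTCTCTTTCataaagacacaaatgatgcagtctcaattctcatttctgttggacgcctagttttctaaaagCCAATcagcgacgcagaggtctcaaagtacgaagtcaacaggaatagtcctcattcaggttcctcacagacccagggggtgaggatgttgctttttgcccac
H2-T22 promoter, chromosome 17, chr17:36042693-36042992, - strand: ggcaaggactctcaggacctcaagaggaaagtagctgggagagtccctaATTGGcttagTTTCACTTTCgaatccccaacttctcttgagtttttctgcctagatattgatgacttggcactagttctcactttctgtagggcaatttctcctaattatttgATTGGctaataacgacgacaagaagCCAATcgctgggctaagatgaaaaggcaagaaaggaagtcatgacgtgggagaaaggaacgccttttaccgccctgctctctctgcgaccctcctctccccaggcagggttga

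The kappa B palindrome stood in the promoters of H2-K1 and H2-D1, and in that of H2-Q6, among the 35 members that matched the promoter table. Of all 27025 promoters of the table, 6 held it (0.0222%). The members with it are related class I genes, and the letters around it are nearly the same in H2-K1 and H2-D1. These matches are therefore not independent, and enrichment was not tested. The interferon response core stood in B2m, H2-T23 and H2-T22, against 3.49% of all promoters, and CCAAT in 30 of the 35 against 37.9%. In H2-T22 the response core and the nearest CCAAT did not overlap. Of the 5 printed promoters, the response core stood in 1 gene with a higher mean and 2 with lower means, and CCAAT in all 5. Only exact matches were counted, so a promoter without a marked core may hold a variant of it. H2-K1 and H2-D1 carry a stretch shortly after the kappa B palindrome that comes near the core without matching it. A match is a description of the letters, not of a bound factor.

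H2-K1 lies at chr17:33996017-34000347 (mm10, minus strand). It was at 117, 120.1 and 109 FPKM in the D-serine libraries, against 88.6, 79.3 and 84.4 FPKM in the vehicle libraries. Every D-serine library lay above every vehicle library, with a log2 difference of 0.45 ± 0.091 (SE, 1.37-fold, limma adjusted p = 0.066, n = 3 each). This was the smallest adjusted p of the set. It passed at 0.049 without D-serine replicate 3 and at 0.048 when small RNA and Gm genes were left out of the genes tested, and in none of the other 14 settings.

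H2-D1 (chr17:35262730-35267499, plus strand) was at 109, 107 and 114 FPKM with D-serine, against 92.4, 88.4 and 98.6 FPKM with vehicle. The groups were again separate, by a smaller step, with a log2 difference of 0.24 ± 0.089 (adjusted p = 0.14). H2-K1 averaged 1.06 ± 0.088 times the FPKM of H2-D1 with D-serine and 0.904 ± 0.052 times with vehicle (SD, n = 3 each), and these ratios overlapped.

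B2m (chr2:122147686-122153083, plus strand) was at 326, 380 and 350.1 FPKM with D-serine, against 249.7, 239 and 301 FPKM with vehicle. The lowest D-serine library lay above the highest vehicle library, with a log2 difference of 0.42 ± 0.12 (adjusted p = 0.095). B2m shares no 50-base word of its longest transcript with another gene, so its value does not depend on how reads of class I copies were divided. The ratio of B2m to the summed FPKM of all class I heavy chain genes was 0.981, 1.14 and 1.03 with D-serine, against 0.819, 0.824 and 0.936 with vehicle.

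The remaining genes of the class Ia group were low. H2-K2, a transcribed pseudogene beside H2-K1, was at 4.46, 6.35 and 5.48 FPKM with D-serine, against 3.80, 4.77 and 4.63 FPKM with vehicle, with overlapping groups. H2-L, a classical class I gene of some mouse haplotypes with no entry in the GENCODE M21 annotation, was at 0.934, 0.339 and 0.507 FPKM with D-serine, against 2, 2.99 and 1.12 FPKM with vehicle. All D-serine libraries lay below all vehicle libraries (log2 difference -0.90 ± 0.26, limma adjusted p = 0.097). The pseudocount sets this size, which was -1.62 with 0.1 and -1.77 with 0.01. H2-L was thus opposite in direction to H2-K1 and H2-D1 at a level near the minimum for testing. Without a transcript entry, how far it shares reads with other class I genes was not measured.

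**Figure D2:**
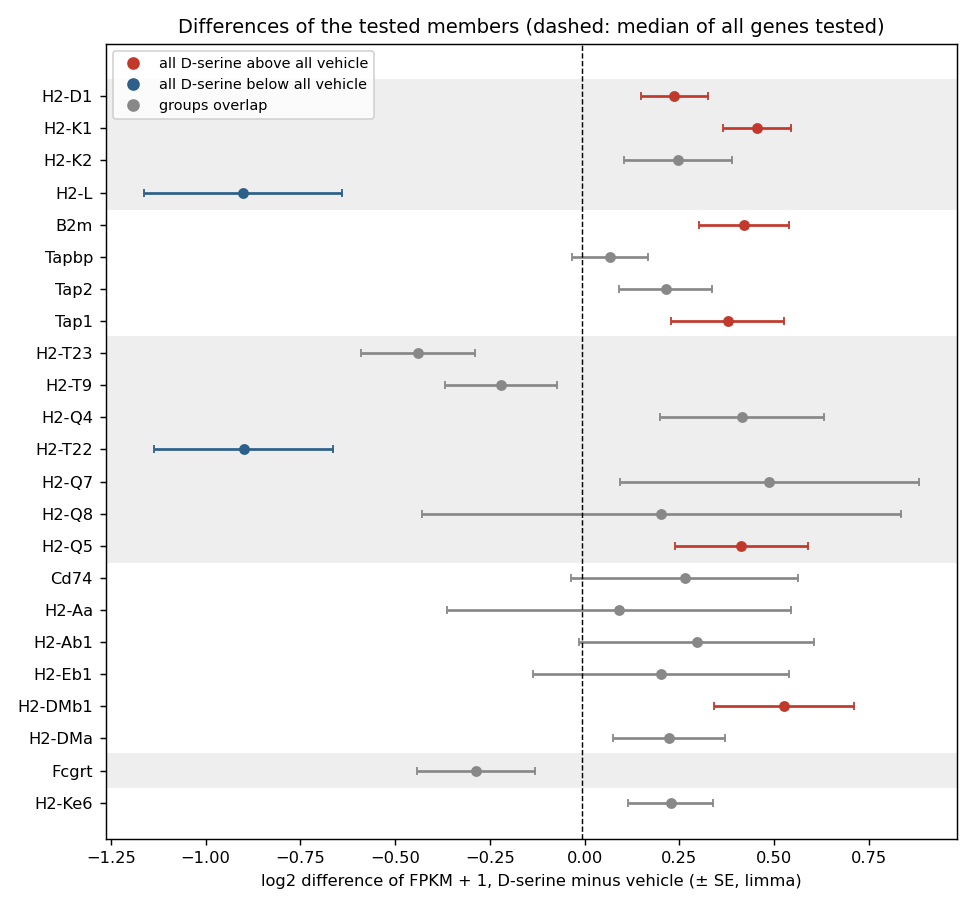
Log2 difference of FPKM + 1, D-serine minus vehicle, with its SE for each tested member in order of role. Red and blue points are genes whose libraries do not overlap between groups, grey points overlap, and the dashed line at -0.0078 is the median of all genes tested.

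Tap1 and Tap2 form the peptide pump, and Tapbp (tapasin) holds empty class I molecules at that pump. Tap1 (chr17:34187553-34197225) was at 2.01, 2.45 and 1.97 FPKM with D-serine, against 1.75, 1.38 and 1.15 FPKM with vehicle. The groups did not overlap (log2 difference 0.38 ± 0.15, limma adjusted p = 0.16). Tap2 (chr17:34203527-34216321) was at 5.40, 6.99 and 6.73 FPKM with D-serine, against 4.83, 5.45 and 5.76 FPKM with vehicle, where D-serine replicate 1 fell within the vehicle range. Tapbp (chr17:33915899-33929292) was at 32.4, 31.4 and 27.3 FPKM with D-serine, against 29.1, 30.2 and 27.4 FPKM with vehicle, and its log2 difference of 0.067 ± 0.10 was within the spread between replicates.

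Nonclassical class I genes, called class Ib, encode molecules with narrower roles and lie in the Q, T and M regions of chromosome 17. H2-T23 encodes Qa-1, which presents leader peptides of other class I chains to the NKG2A receptor of natural killer cells. By the mean over all libraries it and H2-T9 were the most abundant class Ib genes. H2-T23 (chr17:36029773-36032855, minus strand) was at 31.9, 33.8 and 44.7 FPKM with D-serine, against 53.1, 43.6 and 52.9 FPKM with vehicle. D-serine replicate 3 lay just above vehicle replicate 2, so that the groups overlapped (log2 difference -0.44 ± 0.15, adjusted p = 0.12).

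H2-T22, a ligand of certain gamma-delta T cell receptors (chr17:36037128-36042747, minus strand), was at 6.80, 3.01 and 5.11 FPKM with D-serine, against 10.4, 8.33 and 10.7 FPKM with vehicle. All D-serine libraries were lower, with a log2 difference of -0.90 ± 0.24 (limma adjusted p = 0.085). Of the 50-base words of its longest transcript, 35.8% also occur in another gene, most of them in H2-T10. H2-T9, a gene of the same region, was at 41.0, 34.4 and 34.1 FPKM with D-serine, against 35.9, 51.4 and 41.8 FPKM with vehicle. H2-T10 was at 0.612 FPKM or less. Summed over H2-T9, H2-T10 and H2-T22, the level was 48.1, 38.1 and 39.5 FPKM with D-serine, against 46.5, 59.9 and 52.8 FPKM with vehicle, and the groups overlapped. H2-T9 supplied most of this sum. It has no GENCODE M21 entry, so how far it shares reads with H2-T22 was not measured. H2-T22 also shares words with Gm11127 and Gm7030, which are outside the sum. The sum therefore does not settle how reads of H2-T22 were divided.

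The 4 tested genes of the Q region, H2-Q4, H2-Q5, H2-Q7 and H2-Q8, had higher estimates with D-serine, that of H2-Q8 turning negative without vehicle replicate 1 (-0.15) or 2 (-0.13). H2-Q4 (chr17:35379617-35385290) was at 8.83, 15 and 11.7 FPKM with D-serine, against 9.02, 6.44 and 10.3 FPKM with vehicle, with overlap at D-serine replicate 1. H2-Q5, annotated as a polymorphic pseudogene (chr17:35394126-35397800), was at 1.10, 1.43 and 1.48 FPKM with D-serine, against 0.871, 0.456 and 0.965 FPKM with vehicle, without overlap (log2 difference 0.41 ± 0.18, limma adjusted p = 0.18). H2-Q7, a source of the Qa-2 antigen (chr17:35439155-35443773), was at 6.67, 7.52 and 6.46 FPKM with D-serine, against 3.89, 2.27 and 10.1 FPKM with vehicle. Vehicle replicate 3 alone lay above the D-serine range.

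H2-Q6, H2-Q8 and H2-Q9 resemble H2-Q7, and their values jumped between libraries. H2-Q8 was at 1.17, 0.0010 and 2.08 FPKM with D-serine, against 0.0070, 0.037 and 3.21 FPKM with vehicle. H2-Q6 stood at 1.31 FPKM in D-serine replicate 2 and 1.64 FPKM in vehicle replicate 1, which were libraries where H2-Q8 was near 0. Summed over the 4 genes, the level was 8.56, 8.83 and 9.11 FPKM with D-serine, against 5.53, 2.87 and 13.8 FPKM with vehicle. The sum was even across D-serine libraries and wide across vehicle libraries, which enclosed it.

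The remaining class Ib genes were below the minimum for testing. H2-M3, which presents formylated bacterial peptides, was at 0.780, 1.04 and 0.690 FPKM with D-serine, against 0.348, 0.456 and 0.771 FPKM with vehicle. H2-T24 lay between 0.393 and 1.13 FPKM over the 6 libraries, and H2-Q10, known as a secreted molecule of the liver, reached 0.464 FPKM. H2-T3, H2-M2, H2-M9, H2-M11, H2-M10.1, H2-M10.3, H2-M10.4 and H2-M10.6 were listed at 0 in all 6 libraries. Of the 19 members below the minimum but above 0 in a library, none had groups that did not overlap. Only 8 of these were above 0 in all 6 libraries, and a 0 in both groups makes them overlap by definition. With no minimum, 8 of 42 members (19%) did not overlap, against 28.4% of 17438 genes.

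Taken as a sum over all 32 class I heavy chain genes, the level was 333, 333 and 338 FPKM with D-serine, against 305, 290.4 and 322 FPKM with vehicle, a ratio of 1.09. H2-K1 and H2-D1 together supplied 226, 227 and 224 FPKM with D-serine, against 181, 168 and 183 FPKM with vehicle. The 28 class Ib genes supplied 101, 99.6 and 109 FPKM with D-serine, against 118, 115 and 133 FPKM with vehicle. The pair was thus higher, and the class Ib sum lower, in every D-serine library than in every vehicle library. The classical pair thus held 67.9, 68.1 and 66.1% of class I FPKM with D-serine, against 59.4, 57.8 and 56.8% with vehicle. A share within a library does not depend on how libraries are scaled, and the groups were separate. The ratio of H2-T23 to H2-K1 was 0.272, 0.281 and 0.409 with D-serine, against 0.599, 0.55 and 0.627 with vehicle. These sums and ratios combine members chosen with results known and are given without a test.

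Endothelial cells carry class I at high levels. The 6 endothelial markers summed to 34.5, 46.1 and 44.7 FPKM with D-serine, against 25.2, 19 and 37 FPKM with vehicle. Estimates were higher for 5 of 6, and none passed limma at an adjusted p of 0.05. At an unadjusted p under 0.05 there was 1 of 6 (16.7%, against 27.7% of all genes tested). The 8 proximal tubule markers had lower estimates in 8 of 8 and 0 calls in limma. Of these, 2 of 8 had an unadjusted p under 0.05 (25%, against 27.7% of all genes tested). The part of these cells in the class I values was not tested.

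**Figure D3:**
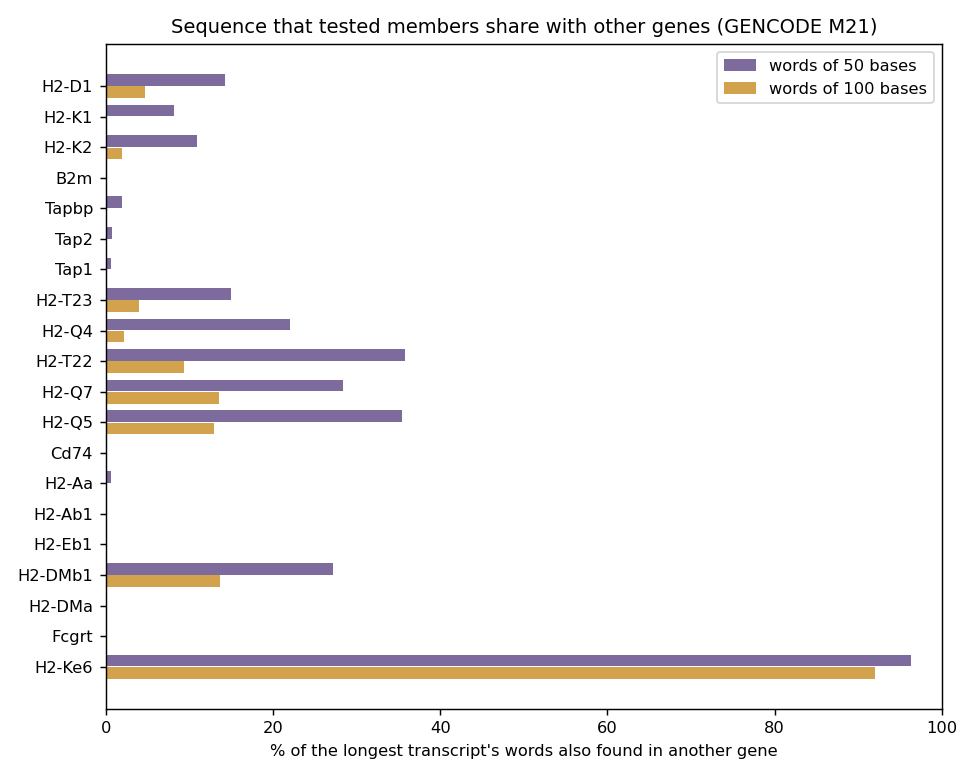
Share of the 50-base and 100-base words in the longest GENCODE M21 transcript of the 20 tested members with an entry there (not H2-L, H2-T9 or H2-Q8) that also occur in a transcript of another gene, in percent. H2-Ke6, H2-T22, H2-Q5, H2-Q7 and H2-DMb1 share the most, and B2m, Cd74, H2-Ab1, H2-Eb1, H2-DMa and Fcgrt share none.

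How far reads could be divided among copies was measured from 48 members with a GENCODE M21 transcript. H2-K1 shared 8.11% of its 50-base words with other genes and none of its 100-base words, and H2-D1 shared 14.3 and 4.64%. The shares at 50 bases were 15% for H2-T23, 22% for H2-Q4, 28.4% for H2-Q7 and 35.4% for H2-Q5. With a read length not given in the sources used here, the values of the Q and T genes are uncertain to a degree that these shares only bound in part.

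Of the 6 tested class II genes, 1 had groups that did not overlap, higher with D-serine (16.7%, against 16.5% of all genes tested that lay higher). Cd74, the invariant chain that blocks the class II groove until peptides arrive, was at 23.2, 22.3 and 40.7 FPKM with D-serine, against 19.4, 18 and 34.2 FPKM with vehicle (chr18:60803848-60812652). Replicate 3 was the highest library of both groups, and vehicle replicate 3 lay above D-serine replicates 1 and 2, with a log2 difference of 0.26 ± 0.30 (limma adjusted p = 0.59). In bulk tissue, fewer cells of a type and less RNA per cell cannot be told apart.

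H2-Aa and H2-Ab1 encode the alpha and beta chains of the I-A molecule, and H2-Eb1 the beta chain of I-E. H2-Aa (chr17:34282744-34287823) was at 6.89, 11.5 and 16.9 FPKM with D-serine, against 7.87, 6.32 and 21.4 FPKM with vehicle. H2-Ab1 (chr17:34257689-34269419) was at 11.9, 8.35 and 16.3 FPKM with D-serine, against 7.85, 6.98 and 15 FPKM with vehicle. H2-Eb1 (chr17:34305867-34316674) was at 5.28, 7.54 and 9.69 FPKM with D-serine, against 5.80, 3.72 and 10.8 FPKM with vehicle. In all 3 genes replicate 3 was the highest library of its group, and the groups overlapped.

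H2-Ea-ps, the I-E alpha gene annotated as a polymorphic pseudogene, and H2-Eb2 were listed at 0 in all 6 libraries. The 6 genes of I-A, I-E and Cd74 summed to 47.3, 49.7 and 83.6 FPKM with D-serine, against 40.9, 35 and 81.3 FPKM with vehicle, a ratio of 1.15. Leaving out vehicle replicate 3 gave a ratio of 1.59 and leaving out D-serine replicate 3 gave 0.925, so its direction rested on single libraries. The spread within a group, as SD over mean, was 29.4 to 42.5% with D-serine and 37.6 to 69.9% with vehicle for Cd74, H2-Aa, H2-Ab1 and H2-Eb1. For H2-K1 it was 4.79% with D-serine and 5.51% with vehicle.

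H2-DMa and H2-DMb1 encode H2-DM, which swaps the invariant chain fragment for peptide, and H2-Oa and H2-Ob encode H2-O, its inhibitor. H2-DMb1 (chr17:34153072-34160230) was at 2.87, 2.82 and 3.23 FPKM with D-serine, against 1.48, 1.34 and 2.62 FPKM with vehicle. This was the 1 gene without overlap, with every D-serine library above every vehicle library and a log2 difference of 0.53 ± 0.18 (limma adjusted p = 0.13), and 27.2% of its 50-base words occur in its neighbour H2-DMb2. H2-DMa (chr17:34119541-34139101) was at 1.96, 2.10 and 1.41 FPKM with D-serine, against 1.46, 1.30 and 1.46 FPKM with vehicle, with overlap. H2-DMb2, H2-Oa and H2-Ob were at 0.193 FPKM or less.

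**Figure D4:**
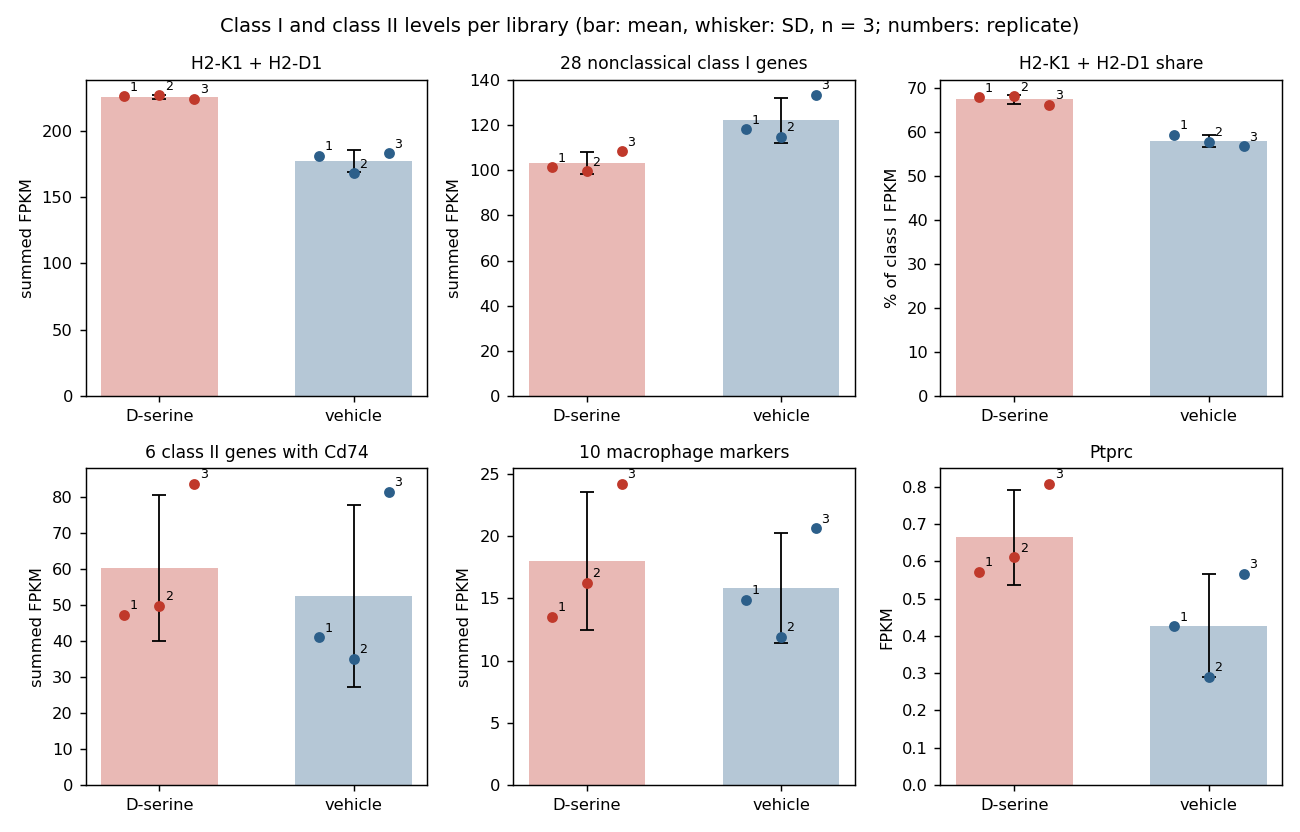
Summed FPKM of the classical pair H2-K1 and H2-D1, of the 28 class Ib genes, of the 6 class II genes with Cd74 and of 10 macrophage markers, the share of class I FPKM held by the pair, and the FPKM of Ptprc, per library with the mean and SD. The pair, its share and Ptprc are higher in every D-serine library than in every vehicle library, and the class Ib sum is lower in every one. Replicate 3 is the highest library of both groups for class II, macrophage markers and Ptprc.

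Leukocyte markers were low in all libraries. Ptprc, which encodes the leukocyte antigen CD45, was at 0.573, 0.611 and 0.809 FPKM with D-serine, against 0.426, 0.290 and 0.567 FPKM with vehicle, below the minimum for testing but without overlap. The 10 macrophage and monocyte markers summed to 13.5, 16.3 and 24.2 FPKM with D-serine, against 14.9, 11.9 and 20.6 FPKM with vehicle. Replicate 3 was again the highest of both groups, as for the class II genes. The 7 dendritic cell markers summed to 0.842, 1.37 and 1.64 FPKM with D-serine, against 0.985, 0.802 and 1.08 FPKM with vehicle. The 5 B cell markers summed to 0.226 to 0.994 FPKM with D-serine, against 0.106 to 0.474 FPKM with vehicle, and Ms4a1 was at 0 in all 6 libraries. The 7 T and natural killer cell markers summed to 0.493 to 1.34 FPKM with D-serine, against 1.17 to 1.51 FPKM with vehicle, and Cd3e was at 0 in all 6. Of the 6 tested macrophage markers, 5 had higher estimates with D-serine. Limma called none of them, and 2 had an unadjusted p under 0.05, 1 higher and 1 lower (33.3%, against 27.7% of all genes tested). The part of these cells in the class II values was not tested.

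Ciita and Nlrc5 encode the transactivators of class II and class I genes, and both were far below the minimum. Ciita (chr16:10480059-10528418) was at 0.0478, 0.0255 and 0.218 FPKM with D-serine, against 0.128, 0.157 and 0.166 FPKM with vehicle. Nlrc5 (chr8:94434356-94527272) was at 0.141, 0.0940 and 0.356 FPKM with D-serine, against 0.0943, 0.181 and 0.244 FPKM with vehicle. On their longest transcripts these levels stood for at most about 10.3 fragments of Ciita and 21.2 of Nlrc5 in a library. The groups overlapped for both, and neither was tested.

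Fcgrt encodes the neonatal Fc receptor, a class I-like chain that pairs with beta-2 microglobulin and recycles IgG and albumin, in the kidney in podocytes and proximal tubule cells. It lies at chr7:45092990-45103851 and was at 134, 115 and 177 FPKM with D-serine, against 169, 169.6 and 172 FPKM with vehicle. The vehicle libraries were almost equal, and D-serine replicates 1 and 2 lay below them and replicate 3 above (log2 difference -0.29 ± 0.16, limma adjusted p = 0.26). The difference was -0.46 without D-serine replicate 3 (limma adjusted p = 0.061) and -0.15 without D-serine replicate 2. Fcgrt was thus opposite in sign to B2m, with which its protein pairs. Cd1d1, which presents lipids to natural killer T cells (chr3:86995834-86999441), was at 0.508, 0.155 and 0.294 FPKM with D-serine, against 0.324, 0.339 and 0.359 FPKM with vehicle.

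H2-Ke6 bears an H2 name because it lies in the MHC (chr17:34026033-34028060). It has the synonym Hsd17b8 and encodes a hydroxysteroid dehydrogenase, not an MHC molecule. It was at 142, 159 and 126 FPKM with D-serine, against 115, 122 and 127 FPKM with vehicle, with overlap. Of its 50-base words, 96.3% occur in the overlapping gene Gm20427, so this value is uncertain.

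Other steps of antigen processing were read from lists of genes outside the set. The immunoproteasome is an inducible form of the proteasome that cuts peptides suited to class I. A list of its genes together with proteasome activator genes had 5 of 6 tested genes with higher estimates. None was called in limma, 4 of 6 had an unadjusted p under 0.05, all higher, and the same number did not overlap (66.7% each, against 27.7% and 35.8% of all genes tested). Their median log2 difference was 0.42, against -0.0078 over all genes tested. The most abundant was Psme1, a subunit of the proteasome activator PA28, at 108, 114 and 93.3 FPKM with D-serine, against 71.0, 70.1 and 81.8 FPKM with vehicle (adjusted p = 0.074). Its partner Psme2 overlapped, at 90.5, 73.7 and 66.5 FPKM with D-serine, against 65.1, 76.5 and 61.4 FPKM with vehicle, as did Psme3, of another activator, at 39.0, 39.5 and 38.6 FPKM with D-serine, against 40.0, 43.0 and 37.2 FPKM with vehicle.

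The 3 catalytic immunoproteasome genes were lower in level, and each was separate between the groups. Psmb9, which lies beside Tap1, is named here after its values were seen and was at 2.98, 3.18 and 2.21 FPKM with D-serine, against 1.95, 0.928 and 1.37 FPKM with vehicle (log2 difference 0.66 ± 0.19, limma adjusted p = 0.098). Psmb10 and Psmb8, likewise chosen, averaged 9.55 ± 1.14 and 3.43 ± 0.281 FPKM with D-serine, against 6.46 ± 1.02 and 2.51 ± 0.374 FPKM with vehicle (SD, n = 3 each).

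A list of 5 other genes of peptide loading and trimming in the endoplasmic reticulum, which leaves out Tap1, Tap2 and Tapbp, had 2 of 5 higher estimates, a median of -0.14 and 0 calls in limma. Tap1, Tap2 and Tapbp had higher estimates, and the lists were not tested against each other. At an unadjusted p under 0.05 there were 2 of 5, both lower (40%, against 27.7% of all genes tested). The groups of 2 did not overlap (40%, against 35.8%). The chaperone gene Calr was at 473, 437 and 429 FPKM with D-serine, against 432, 431 and 432 FPKM with vehicle. Pdia3, a disulfide isomerase of the loading complex, was at 212, 193 and 206 FPKM with D-serine, against 218, 235 and 218 FPKM with vehicle, without overlap. Canx, the membrane chaperone calnexin, was at 104, 60.9 and 104 FPKM with D-serine, against 126, 137 and 110.4 FPKM with vehicle, also without overlap (limma adjusted p = 0.18).

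Proteases and regulators of class II peptide loading were near even, with 3 of 7 tested genes higher, a median of -0.078 and 0 calls in limma. At an unadjusted p under 0.05, 1 was higher and 1 lower (28.6%, against 27.7% of all genes tested). The lysosomal protease genes Ctsd, Lgmn and Ctsl, the most abundant, are used by tubule cells as well as leukocytes. Ctsd averaged 341 ± 48.0 FPKM with D-serine and 357 ± 10.4 FPKM with vehicle, Lgmn 269 ± 60.5 FPKM with D-serine and 309 ± 26.3 FPKM with vehicle, and Ctsl 247 ± 43.2 FPKM with D-serine and 290 ± 16.8 FPKM with vehicle (SD, n = 3 each). All 3 overlapped.

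**Figure D5:**
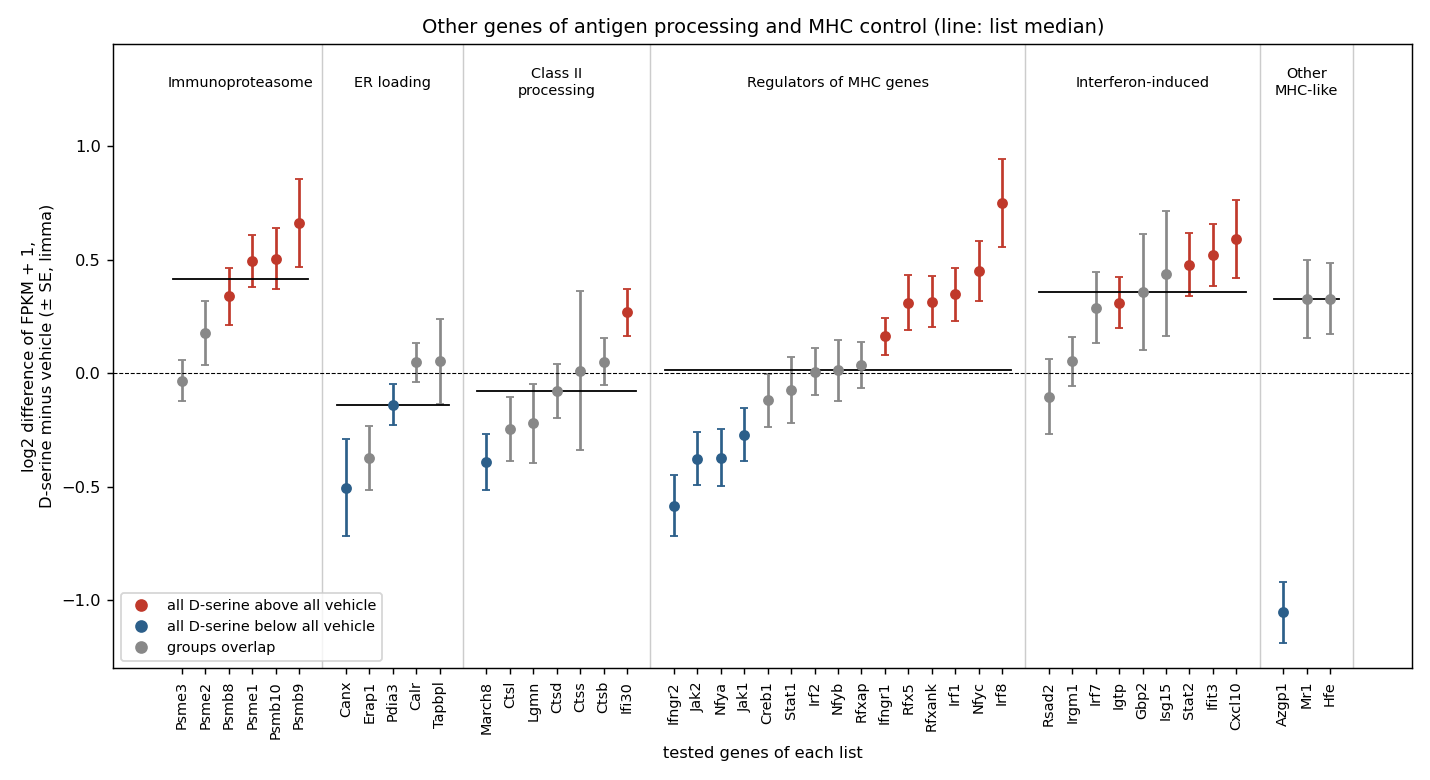
Log2 difference of FPKM + 1, D-serine minus vehicle, with its SE for the tested genes of 6 lists, the black line marking each list's median and colours marking groups that do not overlap, red higher and blue lower with D-serine. The immunoproteasome list, which includes proteasome activator genes, and the interferon list lie mostly above 0. The regulators and class II processing genes spread to both sides.

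Regulators of MHC genes went both ways, with 9 of 15 higher and 6 lower, a median of 0.0125 and 0 calls in limma. At an unadjusted p under 0.05 there were 8, 5 higher and 3 lower (53.3%, against 27.7% of all genes tested). The groups of 10 did not overlap, 6 higher and 4 lower (66.7%, against 35.8%). Nfyc, a subunit of the factor NF-Y, was at 66.6, 77.8 and 56.3 FPKM with D-serine, against 44.8, 50.2 and 50.3 FPKM with vehicle. The other subunits, named after their values were seen, did not share this direction. Nfya averaged 9.13 ± 0.965 FPKM with D-serine and 12.2 ± 1.58 FPKM with vehicle, without overlap, and Nfyb 6.07 ± 1.14 FPKM with D-serine and 5.95 ± 0.197 FPKM with vehicle, with overlap (SD, n = 3 each). The kinase gene Jak1 was at 19.5, 15.5 and 20.1 FPKM with D-serine, against 23.1, 21.4 and 22.2 FPKM with vehicle. The receptor gene Ifngr1, of interferon gamma, was at 17.9, 17.9 and 18.8 FPKM with D-serine, against 16.1, 16.1 and 16.3 FPKM with vehicle. The groups of Nfyc, Jak1 and Ifngr1 were separate, with limma adjusted p of 0.0997 for Nfyc, 0.18 for Jak1 and 0.235 for Ifngr1. The partner receptor chain Ifngr2, also named after its values were seen, was opposite in direction, at 7.13, 4.96 and 6.83 FPKM with D-serine, against 9.95, 9.41 and 10.2 FPKM with vehicle (log2 difference -0.58 ± 0.14, limma adjusted p = 0.074). The rest without overlap are likewise named with values known. Irf8, Irf1, Rfxank and Rfx5 were higher (log2 differences of 0.75, 0.35, 0.31 and 0.31), and Jak2 was lower (-0.38). For Irf8 the limma adjusted p was 0.0835.

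Genes induced by interferons were low. Of 16 listed, 9 were tested, 8 with higher estimates, a median of 0.36 and 0 calls in limma. At an unadjusted p under 0.05 there were 4 of 9, all higher (44.4%, against 27.7% of all genes tested). The groups of 4 did not overlap, all higher (44.4%, against 35.8%). The immunity GTPase gene Irgm1 was at 15, 14.3 and 17.4 FPKM with D-serine, against 16.1, 14.4 and 14.4 FPKM with vehicle, with overlap. Its relative Igtp was at 6.86, 5.86 and 5.42 FPKM with D-serine, against 4.32, 4.77 and 4.91 FPKM with vehicle, and the signalling gene Stat2 at 4.45, 5.32 and 4.01 FPKM with D-serine, against 3.42, 2.52 and 3.11 FPKM with vehicle. Both were separate between the groups (limma adjusted p = 0.14 for Igtp and 0.098 for Stat2).

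Among class I-like molecules outside the set, 3 of 7 were tested and none passed in limma. At an unadjusted p under 0.05 there was 1 (33.3%, against 27.7% of all genes tested). Azgp1, a secreted zinc-binding glycoprotein with a class I fold, was at 38.9, 44.9 and 52.1 FPKM with D-serine, against 107, 90.1 and 87.7 FPKM with vehicle, a log2 difference of -1.05 ± 0.13 (adjusted p = 0.057). Hfe, the class I-like regulator of iron uptake, was at 9.79, 8.11 and 6.10 FPKM with D-serine, against 6.29, 5.79 and 6.12 FPKM with vehicle. Mr1, which presents vitamin B metabolites, was at 1.39, 2.26 and 1.98 FPKM with D-serine, against 1.29, 1.54 and 1.02 FPKM with vehicle. Hfe and Mr1 overlapped, and Azgp1 did not.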

How the data were processed

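Per the labels, RNA came from TRIzol extraction and libraries from the TruSeq stranded mRNA kit. TopHat2 2.0.13, Bowtie2 2.2.3, SAMtools 0.1.19, Cufflinks 2.2.1 and build mm10 are named in the submitters' processing notes, with annotation and strand use not given in the sources used here. The authors deposited FPKM in a table for each sample and no counts. Cufflinks can list a gene at 0 when an estimate fails, so 0 is reported as listed.

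D-serine was compared with vehicle on log2(FPKM + 1) by a two-sided limma test (version 3.58.1, R 4.3.3, moderated variances with a trend) over the 11737 genes whose mean reached 1 FPKM, with Benjamini-Hochberg adjustment over all of them and a threshold of 0.05. The pseudocount of 1 understates differences of low genes. Scripts were tested on simulated data. Members and lists were chosen with earlier results of these data known. Tested members are named with all values, and the 3 most abundant genes of each other list. Promoters came from the RefSeq table (GRCm38.p6), where 35 members matched, and positions and transcripts from GENCODE M21, where 48 matched. Depth came from the spacing of low values of 875 genes with 1 annotated transcript. An exact permutation test of 3 against 3 cannot go below p = 0.1 and was not used. Alternatives were other pseudocounts, minimums and scalings, no trend, weighted libraries, a replicate block, fewer genes and leaving out each library.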

Additional observations from a re-analysis of the deposited data

How the results depend on the processing

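The call of no member at an adjusted p of 0.05 in limma held in 14 of 16 other settings, with 1 member (H2-K1) called when small RNA and Gm genes were left out and 0 to 1 in the 6 fits without 1 library. The number of genes called over all genes tested was 9, and it was 171 with a pseudocount of 0.1, 221 with 0.01, 132 with a minimum of 5 FPKM, 269 with weighted libraries, 342 without small RNA and Gm genes, and 2 to 608 without 1 library (27, 11 and 608 without D-serine replicates 1, 2 and 3, and 4, 5 and 2 without vehicle replicates 1, 2 and 3). With the replicate block it was 2 and no member was called, and the numbers did not pair the samples (correlations of -0.070, 0.0031 and 0.067 between the deviations of same-numbered libraries). The median of the members was 0.11 with no minimum, which added low genes, and 0.15 to 0.31 without 1 library. Members without overlap numbered 4 of the 16 left at a minimum of 5 FPKM (25%, against 39% of all genes tested), and 7 to 12 without 1 library (31.8 to 57.1%, against 41.5 to 50.5%). The class II sum ratio ran from 0.925 to 1.59 without 1 library. Without 1 library the log2 difference of 4 members changed sign, running from -0.0068 to 0.54 for Cd74, -0.22 to 0.58 for H2-Aa, -0.11 to 0.55 for H2-Eb1 and -0.15 to 0.66 for H2-Q8, and no sign changed in the other 10 settings. The cause was not tested. Depth limits Ciita, Nlrc5 and the other genes under 1 FPKM. It also limits tested members near that minimum. On its longest transcript H2-Q5 stood for about 4.5 to 13.4 fragments in a library, and H2-DMb1 for about 16 to 35.7.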

Other observations

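Of the 6 tested macrophage markers, 5 had higher estimates with D-serine and 1, Csf1r, a lower one, with a median log2 difference of 0.27. The markers Cd68 and Csf1r are given here, chosen after their values were seen. Cd68, a lysosomal protein of macrophages, was at 1.76, 1.67 and 1.77 FPKM with D-serine, against 0.611, 0.183 and 0.904 FPKM with vehicle. Csf1r, the receptor for the macrophage growth factor, was at 2.94, 2.07 and 5.24 FPKM with D-serine, against 6.35, 5.11 and 5.89 FPKM with vehicle. The groups were separate for Cd68, overlapped for Csf1r, and neither gene passed limma (adjusted p = 0.078 for Cd68 and 0.14 for Csf1r).

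Cd8a, whose protein binds class I on cytotoxic T cells, stood at 1.14, 1.005 and 0.452 FPKM with D-serine, against 1.14, 1.02 and 1.17 FPKM with vehicle, while Cd3e, a T cell receptor component, was listed at 0 in all 6 libraries and Cd3d reached 0.113 FPKM.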
